A study of Mus musculus with 52 samples.

Results

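Cirbp and Rbm3 encode the cold-inducible RNA-binding proteins of the mouse. They are 2 of the 21999 gene rows in the light-pulse and Npas4 tables of bulk RNA-seq from the suprachiasmatic nucleus (SCN), the paired hypothalamic nuclei that hold the circadian pacemaker. The rows were found by gene symbol, and both passed the filter on low counts in both experiments. All animals were male and 11 to 12 weeks old, and each bulk library pooled 6 pairs of SCN.

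The light-pulse experiment used wild-type mice in 6 groups. Light began at circadian time (CT) 17, in the subjective night, and 4 libraries were made after a pulse of 0.5 h and 2 each after pulses of 1 h, 3 h and 6 h. The dark controls were taken at CT17 (4 libraries), when the light began, and at CT23 (2 libraries), when the 6 h pulse ended. The Npas4 experiment had 3 libraries in each of 4 groups. These were Npas4 null (Npas4-/-) mice after 1 h of light from CT17, Npas4 null mice in dark, wild-type littermates after the same light and wild-type littermates in dark. Npas4 encodes an activity-induced transcription factor, and its loss is not limited to any cell type that the labels name.

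CIRBP and RBM3 are small proteins with a single RNA-recognition motif and a glycine-rich tail. Mild cooling of mammalian cells raises both, and heat lowers them. Body temperature has a daily rhythm, and in cultured mouse fibroblasts simulated body-temperature cycles make Cirbp rhythmic, while CIRBP binds Clock mRNA and supports the amplitude of the clock. In mice RBM3 has been linked to the protection and regrowth of synapses, and in cultured cells warmth favours an Rbm3 transcript with a poison exon that is broken down. Counts per gene do not separate such transcripts.

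RefSeq annotation of GRCm38.p6, the assembly also called mm10, placed Cirbp on chromosome 10 (chr10:80165990-80172786) and Rbm3 on the X chromosome (chrX:8138975-8145880). Cirbp ends 158 bases before the start of its neighbour Fam174c. Rbm3 overlaps the long non-coding gene Rbm3os (chrX:8145427-8147964) and has a pseudogene, Rbm3-ps, on chromosome 1. Neither Rbm3os nor Rbm3-ps was a row of the count tables. Whether strand was used in counting is not given in the sources used here, so reads of Rbm3 and Rbm3os cannot be told apart where they overlap. How reads that match both Rbm3 and Rbm3-ps were assigned was not examined.

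The promoter of Cirbp is shown because cold induction of this gene has been mapped to an element in it. The letters run over chr10:80167589-80167888 on the plus strand, as RefSeq gives them for GRCm38.p6. They span 250 bases before to 50 bases after the first of 2 starts listed among the RefSeq promoters. The annotated extent of Cirbp begins further upstream, at chr10:80165990, and the stretch before this window was not searched. Capitals mark the mild cold response element TCCCCGCC and both CCAAT boxes, of which the second lies on the minus strand and reads ATTGG.

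Cirbp promoter: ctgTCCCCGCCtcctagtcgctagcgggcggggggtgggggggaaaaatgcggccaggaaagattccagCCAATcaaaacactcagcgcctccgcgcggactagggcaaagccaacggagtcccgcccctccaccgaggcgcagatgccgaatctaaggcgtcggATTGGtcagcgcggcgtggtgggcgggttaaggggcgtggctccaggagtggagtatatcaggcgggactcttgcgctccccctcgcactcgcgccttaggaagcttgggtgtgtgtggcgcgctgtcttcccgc

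The search covered both strands. TCCCCGCC, which is known in mice as a site of cold induction through the factor SP1, lay 247 bases before the start and occurs in 5.38% of the 32851 promoter windows of the same length. CCAAT began 181 and 85 bases before the start and occurs in 37.4% of windows. The GC box GGGCGG, the core site of SP1, lay at 3 places that overlap none of the capitals, and 35.7% of windows hold it. No match was found in this window to the cAMP response element TGACGTCA (1.79% of windows), the shorter TGACG contained in it (20.8%), the E-box CACGTG (7.15%), the AP-1 site TGANTCA (7.81%) or the heat shock element GAANNTTC (7.86%). The second start lies 332 bases downstream. Its window held GGGCGG at 4 places and TGACG at 1, and none of the other letters.

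Both transcripts were well covered. Cirbp had 752 to 1671 reads per light-pulse library and 2886 to 4445 per Npas4 library, and Rbm3 had 273 to 1207 and 1402 to 2258. Library totals were 12477382 to 30149286 reads in the light-pulse experiment and 26638939 to 32097975 reads in the Npas4 experiment. In the light-pulse experiment, 4 libraries carry the letter s in their names, 2 at CT17 and 2 at 0.5 h. They held 27413860 to 30149286 reads each, against at most 15369985 in the other 12. On the first principal component, which held 31.9% of the variance, the s libraries lay at 11.7 to 28.3. Label batch 2 also held 7 libraries without the letter, at -16.7 to -7.25, and the 5 libraries in label batch 1 spread over -7.97 to 22.5. The main model therefore held a term for the letter s. All 8 fixed markers of SCN neurons were detected in every group.

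Per length, Cirbp was the more abundant transcript in all 28 libraries. In RPKM, reads scaled by gene length and library size, the wild-type light-pulse group means of Cirbp were 20.7 ± 1.02 after 0.5 h of light (SD, n = 4), 25.8 ± 0.0922 after 1 h, 23.8 ± 3.10 after 3 h, 29.9 ± 6.23 after 6 h (n = 2 each), 24.6 ± 4.26 in dark at CT17 (n = 4) and 26.9 ± 4.58 in dark at CT23 (n = 2). Ordered by level, from 6 h of light at the top to 0.5 h at the bottom, every pair of neighbouring groups had overlapping ranges. The top and bottom groups did not overlap, with at least 25.5 RPKM in each 6 h library and at most 21.8 RPKM in each 0.5 h library. Rbm3 had means of 8.22 ± 1.04 RPKM after 0.5 h, 7.71 ± 1.61 after 1 h, 6.07 ± 0.482 after 3 h, 4.94 ± 1.38 after 6 h, 6.22 ± 0.697 at CT17 and 4.46 ± 0.688 at CT23. Neighbouring groups in the order of Rbm3 level, which runs from 0.5 h of light to CT23 dark, overlapped as well. The top and bottom groups did not: Rbm3 had at least 6.74 RPKM in each 0.5 h library and at most 4.95 RPKM in each CT23 library. In the separately tabulated Npas4 experiment both genes stood higher, at 52.8 ± 5.54 RPKM for Cirbp and 12.2 ± 0.949 RPKM for Rbm3 in wild-type dark libraries (n = 3). The experiments were not tested against each other.

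After 0.5 h of light at CT17, the Rbm3 libraries lay just above those of dark at CT17 in CPM but not in RPKM. No call was made for either gene. Levels of single genes in CPM are counts scaled to library size by TMM, and summed marker levels are scaled to library totals alone. Rbm3 stood at 42.6 and 31.6 CPM in the 0.5 h libraries without the letter s and at 37.5 and 39.6 CPM in those with it, against 29.9 and 24.9 CPM without s and 31.4 and 29.2 CPM with s in dark at CT17. In CPM the groups did not overlap, by a margin of 31.6 against 31.4. In RPKM they did, with 6.74 in the lowest 0.5 h library and 6.88 in the highest CT17 library. The fitted log2 change was 0.39 ± 0.12 (SE, 95% interval 0.13 to 0.64), with an unadjusted p of 0.00532 and an adjusted p of 0.509 in edgeR's quasi-likelihood test. Over all 14524 genes tested, 0.468% were called at an adjusted p of 0.05 in this comparison.

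Cirbp stood at 57.3 and 55.2 CPM without s and 49.0 and 50.5 CPM with s after 0.5 h of light, against 76.9 and 69.9 CPM without s and 53.8 and 53.2 CPM with s in dark at CT17. The light libraries were below the dark ones of the same kind, but the pooled groups overlapped. The log2 change was -0.24 ± 0.09, with an adjusted p of 0.909 (edgeR). Cirbp also differed between the kinds of library, by -0.46 (log2, s minus others) at CT17 and by -0.18 at 0.5 h, while Rbm3 differed by 0.15 and 0.07. Summed markers of meningeal fibroblasts reached 95.4 to 780 CPM in the 0.5 h libraries, against 80.8 to 278 CPM at CT17, and all 6 had positive changes with none called. All 5 endothelial markers had positive changes as well, while all 10 oligodendrocyte and all 6 astrocyte markers had negative ones, with none called. The part of these markers in the Cirbp and Rbm3 values was not tested.

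**Figure D1:**
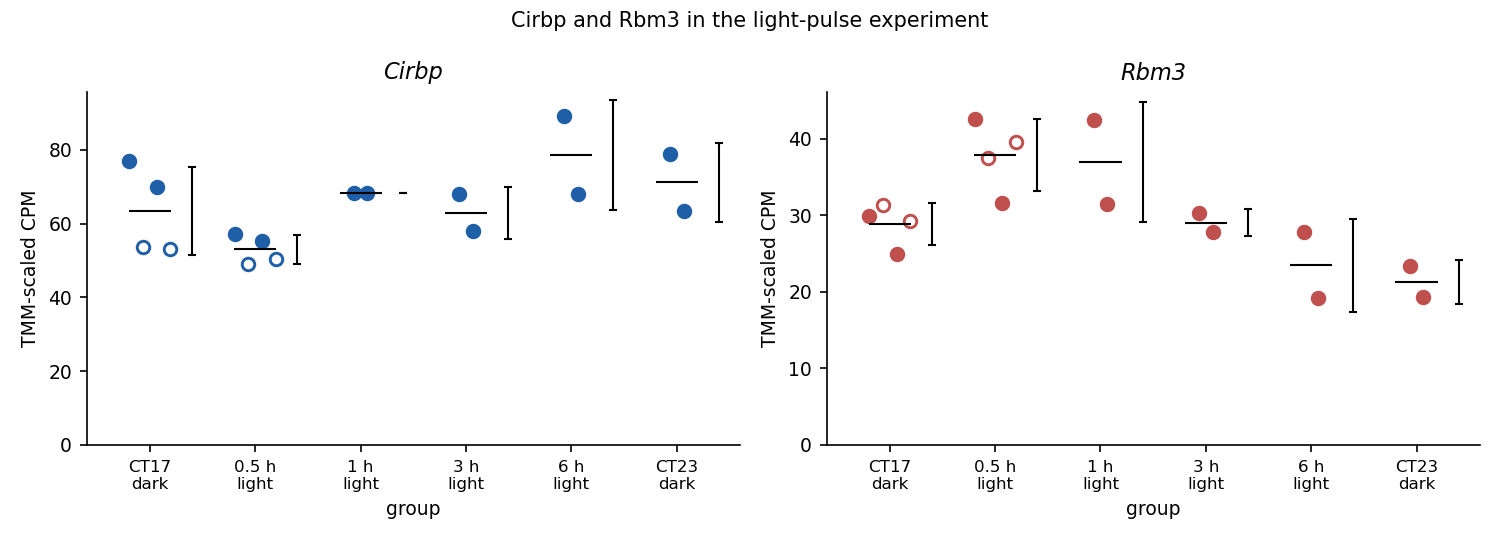
TMM-scaled CPM of Cirbp (left) and Rbm3 (right) in each light-pulse library, with groups in order of light duration between the CT17 and CT23 dark controls. Points are libraries (open: letter s in the name), horizontal lines are means and bars are SD. The 4 Rbm3 points at 0.5 h lie at 31.6 to 42.6 CPM, and the open Cirbp points lie below the filled ones at CT17 and 0.5 h.

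After 1 h of light, Rbm3 had 42.4 and 31.4 CPM, against 24.9 to 31.4 CPM in the 4 dark libraries at CT17. The lower light library was level with the highest dark one, which carries the letter s. The log2 change was 0.41 ± 0.16 (adjusted p = 0.449, edgeR), where 1.27% of genes were called. It rested on single libraries, with 0.17 when light library 1 was left out and 0.60 when light library 2 was. Cirbp had 68.3 and 68.4 CPM after 1 h, inside the range of 53.2 to 76.9 CPM at CT17. Both lay below the CT17 libraries without s, at 76.9 and 69.9 CPM. The log2 change of Cirbp was -0.03 ± 0.12 (adjusted p = 0.988, edgeR). Its sign depended on the model. Within label batch 2, where the CT17 dark libraries all carry the letter s, the change was 0.35 (adjusted p = 0.0463, edgeR). All 10 oligodendrocyte markers had negative changes at 1 h, with summed levels of 4059 to 5969 CPM after light, against 7665 to 9118 CPM at CT17. None of the 10 was called in the main model, and all 10 were called lower with the label batch in place of the letter s, where 8.39% of all genes were called. All 6 meningeal fibroblast markers also had negative changes at 1 h, with none called. The part of these markers in the Cirbp and Rbm3 values was not tested. In bulk tissue, fewer cells of a type and less RNA per cell cannot be told apart.

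After longer light, values lay close to those of the dark controls used. The 3 h pulse ended at CT20, where no dark library was made. It was therefore set against CT17, so circadian time was not matched. After 3 h, Rbm3 had 30.3 and 27.8 CPM, within the CT17 range, and a log2 change of 0.06 ± 0.17 (adjusted p = 0.914, edgeR). Cirbp had 68.0 and 58.0 CPM, against 76.9 and 69.9 CPM at CT17 without s and 53.8 and 53.2 CPM with it. Its log2 change was -0.15 ± 0.12 (adjusted p = 0.605, edgeR), while 3.24% of genes were called. After 6 h, Rbm3 had 27.8 and 19.1 CPM, against 23.3 and 19.3 CPM in dark at CT23, and a log2 change of 0.14 ± 0.19 (adjusted p = 0.938). Cirbp had 89.2 and 68.2 CPM after 6 h, against 78.8 and 63.6 CPM at CT23, and a log2 change of 0.15 ± 0.13 (adjusted p = 0.859). The libraries overlapped for both genes, and 1.41% of genes were called at 6 h.

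In darkness alone, Rbm3 was lower at CT23, with 23.3 and 19.3 CPM, against 24.9 to 31.4 CPM at CT17. The libraries did not overlap, but the log2 change of -0.39 ± 0.17 was not called (unadjusted p = 0.0373, adjusted p = 0.457, edgeR). Cirbp overlapped between these times, with a log2 change of 0.02 ± 0.12 (adjusted p = 0.964). Only 0.269% of all genes were called between the dark groups.

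Between successive pulse lengths no change of either gene was called. Pulse length and circadian time changed together in these steps, and their parts cannot be told apart. From 0.5 h to 1 h, Rbm3 differed by 0.02 ± 0.16 and Cirbp by 0.20 ± 0.12 on the log2 scale, where 0.496% of genes were called. With the label batch in place of the letter s, the Cirbp step was 0.52 and was called (adjusted p = 0.0137, edgeR), among 7.27% of all genes. From 1 h to 3 h, the log2 step was -0.35 ± 0.18 for Rbm3 and -0.12 ± 0.13 for Cirbp, with 1.53% of genes called. From 3 h to 6 h, it was -0.31 ± 0.18 for Rbm3 and 0.32 ± 0.13 for Cirbp, with 0.633% of genes called. When single libraries were left out, the step from 0.5 h to 1 h was 0.15 to 0.22 for Cirbp and -0.21 to 0.22 for Rbm3. The steps from 1 h to 3 h and from 3 h to 6 h moved by over 1.5 times. The Rbm3 step from 1 h to 3 h was -0.12 without 1 h library 1 and -0.54 without 1 h library 2, and the Cirbp step was -0.23 without 3 h library 1 and -0.0079 without 3 h library 2. From 3 h to 6 h, the Rbm3 step was -0.60 without 6 h library 1 and -0.0661 without 6 h library 2, and the Cirbp step was 0.12 and 0.50 without the same libraries.

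Within a library, the level of Rbm3 relative to Cirbp was highest after 0.5 h of light and lowest in both groups at CT23. The ratio of Rbm3 to Cirbp RPKM averaged 0.397 ± 0.0542 after 0.5 h (SD, n = 4), 0.300 ± 0.0634 after 1 h, 0.256 ± 0.0132 after 3 h, 0.164 ± 0.0120 after 6 h (n = 2 each), 0.260 ± 0.0629 at CT17 (n = 4) and 0.166 ± 0.00267 at CT23 (n = 2). In libraries without s it was 0.412 and 0.317 after 0.5 h, against 0.215 and 0.198 at CT17. In libraries with s it was 0.424 and 0.435 after 0.5 h, against 0.323 and 0.304 at CT17. Light and dark did not overlap within either kind, whereas over both kinds the lowest light value lay below the highest dark one. After 6 h of light the ratio was 0.173 and 0.156, against 0.164 and 0.168 in dark at CT23, so those groups overlapped. The ratios are described here without a test.

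**Figure D2:**
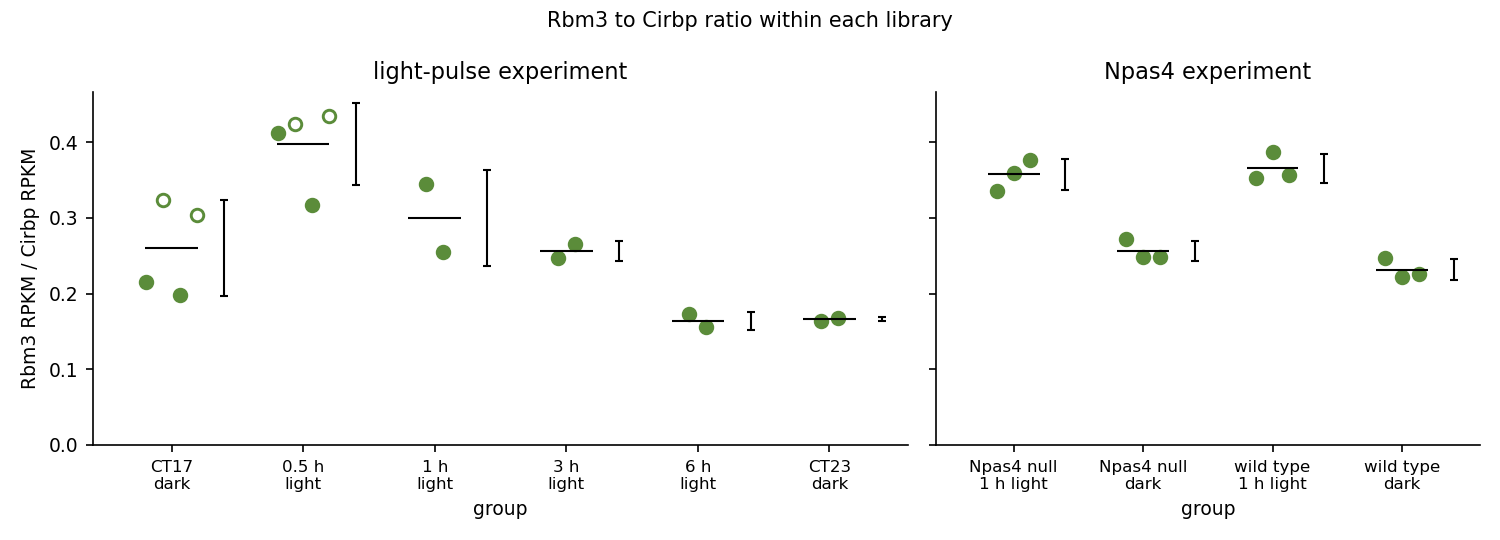
Ratio of Rbm3 to Cirbp RPKM within each library of the light-pulse experiment (left) and the Npas4 experiment (right). Points are libraries (open: letter s in the name), horizontal lines are means and bars are SD. Every library lies below 1, light libraries of the Npas4 experiment lie at 0.336 to 0.387 and its dark libraries at 0.221 to 0.272.

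The Npas4 experiment repeated 1 h of light from CT17 in Npas4 null mice and littermates. Reads still fell on Npas4 in the null libraries, with 4.55, 7.63 and 5.19 CPM after light and 5.27, 10.1 and 10.4 CPM in dark. Wild-type littermates had 13.7, 10.7 and 14.0 CPM after light and 8.64, 8.20 and 8.34 CPM in dark. The light libraries of the genotypes did not overlap, but the dark ones did, so this gene does not check the genotype labels in dark. The deleted part of Npas4 is not given in the sources used here.

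Light raised Rbm3 in both genotypes. Npas4 null libraries had 64.3, 69.9 and 66.8 CPM of Rbm3 after light and 51.7, 50.5 and 53.5 CPM in dark. Wild-type libraries had 66.9, 74.2 and 71.8 CPM after light and 54.2, 55.1 and 60.5 CPM in dark. All 6 light libraries lay above all 6 dark ones. Rbm3 rose by 0.37 ± 0.06 on the log2 scale in null mice, a fold of 1.29 (adjusted p = 0.00623, edgeR; 1.56% of 15001 genes called). It rose by 0.33 ± 0.06 in wild-type littermates, a fold of 1.25 (adjusted p = 0.00971; 2.57% called). Leaving out wild-type dark library 1 or wild-type light library 2 or 3 ended the wild-type call, with adjusted p-values of 0.0606, 0.0585 and 0.0519. The null call held in every leave-out. With light, 1 of 10 oligodendrocyte markers had a positive change in null mice (list median -0.127), and 10 of 10 in wild-type littermates (0.0781). Of 6 meningeal fibroblast markers, 0 were positive in null mice (list median -0.911) and 2 in wild-type littermates (-0.0192). No marker of either list was called, and their part in the Rbm3 and Cirbp values was not tested.

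Cirbp moved the other way in wild-type littermates. Wild-type libraries had 105.2, 106.3 and 111.8 CPM of Cirbp after light and 121.5, 137.9 and 148.9 CPM in dark, with no overlap. The log2 change was -0.34 ± 0.08, a fold of 0.791, and was called (adjusted p = 0.031, edgeR). This call depended on single libraries: it was lost in 5 of 6 leave-outs, all but that of wild-type dark library 1, with adjusted p-values up to 0.167 and log2 changes of -0.41 to -0.26. Npas4 null libraries had 106.0, 107.8 and 98.5 CPM after light and 105.6, 113.0 and 119.3 CPM in dark, which overlap. In RPKM the same groups did not overlap, at 37.8 to 41.0 after light and 41.8 to 46.5 in dark. The log2 change of Cirbp in null mice, -0.11 ± 0.08, was not called (adjusted p = 0.892, edgeR).

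**Figure D3:**
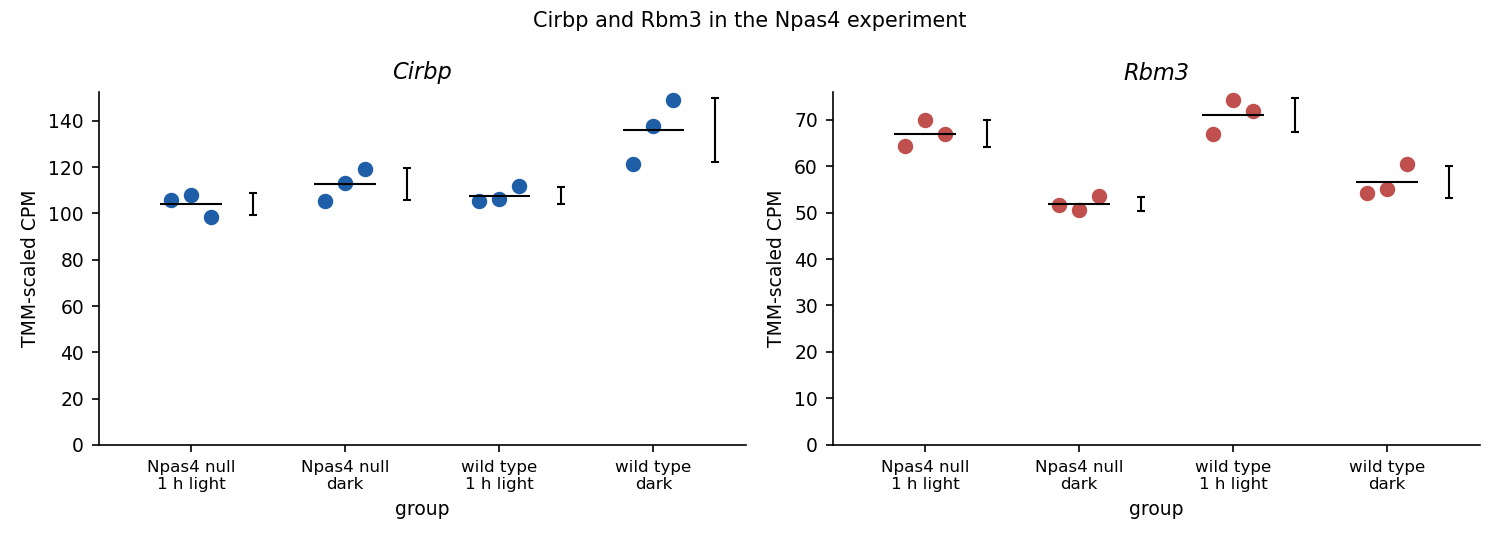
TMM-scaled CPM of Cirbp (left) and Rbm3 (right) in each library of the Npas4 experiment. Points are libraries, horizontal lines are means and bars are SD (n = 3). For Rbm3 all light points (64.3 to 74.2 CPM) lie above all dark points (50.5 to 60.5 CPM), and for Cirbp the wild-type dark points (121.5 to 148.9 CPM) lie above all others.

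A difference in the light response between genotypes was not shown for either gene. The log2 response in null mice minus that in wild-type mice was 0.22 ± 0.11 for Cirbp (95% interval -0.01 to 0.46, unadjusted p = 0.0572, adjusted p = 1, edgeR). It was 0.04 ± 0.09 for Rbm3 (95% interval -0.15 to 0.23, adjusted p = 1), and 0.0133% of genes were called in this contrast.

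Averaged over genotypes, light raised Rbm3 by 0.35 ± 0.04 on the log2 scale (adjusted p = 0.000256, edgeR). It lowered Cirbp, with a log2 change of -0.23 ± 0.05 (adjusted p = 0.0315), and 3.87% of all genes were called. An exact two-sided permutation of the light labels within genotype gave p = 0.005 for Rbm3, the smallest that its 400 arrangements can give, and p = 0.015 for Cirbp. These p-values make no allowance for the choice of genes. The averaged Cirbp call was lost in 10 of 12 leave-outs of a single library, with log2 changes of -0.26 to -0.19 and adjusted p-values up to 0.113, and the averaged Rbm3 call in none.

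No difference between genotypes was called in the model of the 4 groups. In dark, Cirbp had 105.6 to 119.3 CPM in null and 121.5 to 148.9 CPM in wild-type libraries, with a log2 change of -0.27 ± 0.08 (unadjusted p = 0.00331, adjusted p = 0.183, edgeR; 0.753% of genes called). Rbm3 had 50.5 to 53.5 CPM in null and 54.2 to 60.5 CPM in wild-type dark libraries, with a log2 change of -0.12 ± 0.06 (adjusted p = 0.587). In CPM the genotypes did not overlap in dark for either gene. In RPKM they overlapped for Rbm3, with up to 11.6 in null and from 11.4 in wild-type dark libraries. After light they overlapped for both, with log2 changes of -0.05 ± 0.08 for Cirbp and -0.08 ± 0.06 for Rbm3 (adjusted p = 0.999 each; 0.467% called). Averaged over lighting, the log2 changes were -0.16 ± 0.05 for Cirbp (adjusted p = 0.204) and -0.10 ± 0.04 for Rbm3 (adjusted p = 0.359), where 1.93% of genes were called. Summed markers of SCN neurons were 1825 to 2629 CPM in null and 1159 to 1554 CPM in wild-type dark libraries, and 3 of the 8 rose in null mice, namely Rgs16 (log2 change of 1.84), Prok2 (3.34) and Nms (1.47). All 10 oligodendrocyte markers had positive changes in this comparison with none called, and sums of 6019 to 7226 CPM in null and 4633 to 7253 CPM in wild-type dark libraries. All 6 meningeal fibroblast markers did too with none called, and sums of 57.9 to 223 CPM in null and 62.7 to 81.2 CPM in wild-type dark libraries. All 5 endothelial markers had positive changes and all 6 astrocyte markers negative ones, with none called. The part of these markers in the Cirbp and Rbm3 values was not tested.

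Within libraries the ratio of Rbm3 to Cirbp RPKM was 0.336, 0.360 and 0.376 in null mice after light, against 0.272, 0.248 and 0.249 in null mice in dark. It was 0.352, 0.387 and 0.356 in wild-type littermates after light, against 0.247, 0.221 and 0.225 in wild-type dark. Light and dark did not overlap in either genotype or across them. The light means of both genotypes, 0.357 ± 0.0201 in null and 0.365 ± 0.0190 in wild-type libraries (SD, n = 3 each), differed by less than their spread.

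**Figure D4:**
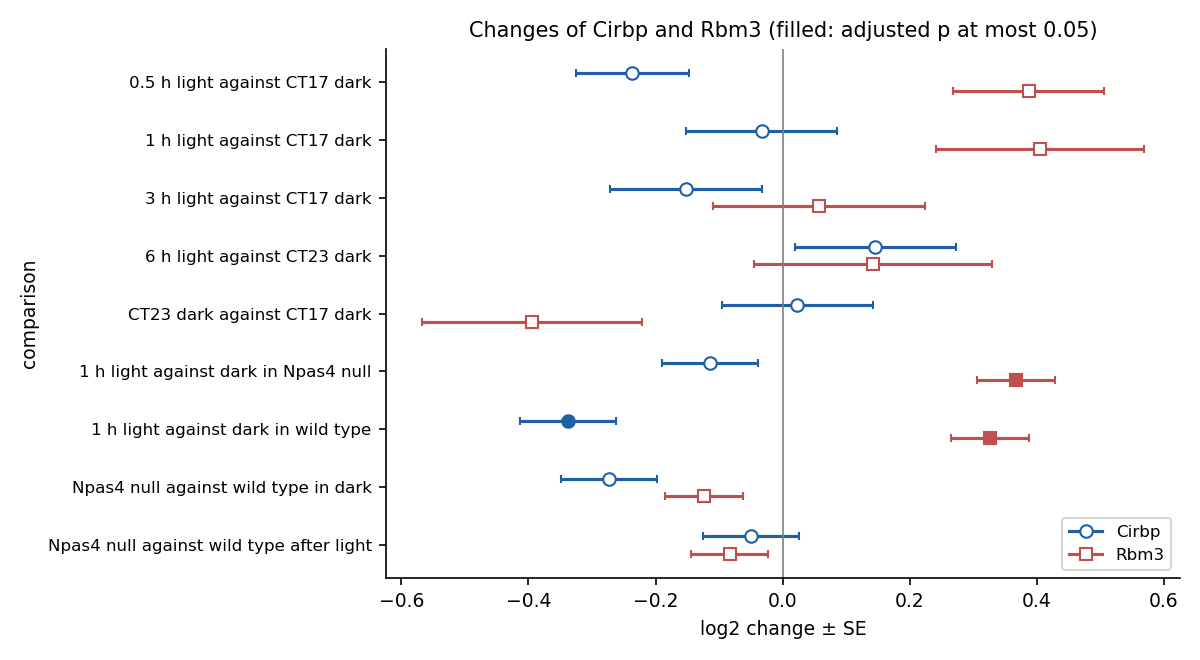
Log2 change ± SE of Cirbp (circles) and Rbm3 (squares) in 9 comparisons, the first 5 from the light-pulse experiment and the others from the Npas4 experiment. Filled points were called at an adjusted p of 0.05: Rbm3 after light in Npas4 null mice (0.37), and both genes after light in wild-type littermates (0.33 for Rbm3 and -0.34 for Cirbp).

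Some genes of related function changed with light. In the comparison averaged over genotypes, where 3.87% of all genes were called, 3 of 19 chaperones, 2 of 15 splicing genes and 3 of 10 clock genes were called. Of the 19 heat-induced chaperones, whose proteins refold clients after heat, light averaged over genotypes raised Dnajb1 (0.88 on the log2 scale), Bag3 (0.62) and Dnaja1 (0.28), and lowered none. Dnajb1 and Dnaja1 encode HSP40 co-chaperones and Bag3 an HSP70 co-chaperone. The median of the list was 0.16, against -0.01 for all genes. Dnajb1 also rose by 0.89 after 0.5 h and by 0.72 after 1 h of the light-pulse experiment, as the only chaperone called at either time. After 3 h Bag3 rose by 0.47 while Dnajb1 fell by 0.40 and Hspa1b, a low-count HSP70 gene, fell by 1.24. At 6 h no chaperone was called. With the label batch term, 6 of 19 chaperones were called higher at 1 h, among 8.39% of all genes.

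Of the 15 CLK kinases and SR splicing factors, which act together in splice-site choice, Clk3 (0.35) and Srsf5 (0.19) rose with light averaged over genotypes and none fell, with a list median of 0.07. Clk3 was called in null (0.30) and in wild-type mice (0.40), and none of the 15 in any light-pulse comparison with dark in the main model. With the label batch term 1 of the 15 was called higher at 1 h. None of 16 hnRNP and related RNA-recognition-motif genes and none of 7 cold shock domain genes was called in these comparisons, whereas with the label batch term 3 of the 7 were called at 1 h and 3 at 3 h, with 1 higher and 2 lower each time, among 8.39% and 11.5% of all genes. The 13 regulators, partners and targets of the pair had no call in these comparisons, with or without the label batch term. Rtn3, an effector of RBM3 at synapses, and Sp1 were among them. Of the 10 clock genes, Per1 (1.95) and Per2 (0.97) rose and Dbp fell by 0.29 with light averaged over genotypes. Clock, whose mRNA CIRBP binds, was not among those called there.

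Among the 5 transcripts most like Rbm3, all but Btg1 were splicing genes. Over the 12 light-pulse libraries without s, among 11842 genes ranked by Pearson's r of log2 CPM, the 5 closest to Rbm3 were Btg1, an antiproliferative gene (0.956), Clk1 (0.932), Srsf3 (0.930), Tra2a (0.919) and Srsf5 (0.910). Over the 12 Npas4 libraries the same genes had r of 0.617, 0.475, 0.726, 0.713 and 0.883 with Rbm3. All 15 CLK and SR genes correlated positively with Rbm3 in both experiments, with medians of 0.764 and 0.475, while the median of all genes was near 0. Averaged over genotypes, light changed Srsf5 by 0.19 ± 0.05 (adjusted p = 0.0483, edgeR). The log2 values of Tra2a (0.20 ± 0.06, adjusted p = 0.138) and Srsf3 (0.12 ± 0.05, adjusted p = 0.244) were not called. Nor were those of Btg1 (0.19 ± 0.07, adjusted p = 0.264) and Clk1 (0.07 ± 0.05, adjusted p = 0.711).

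The genes closest to Cirbp over the light-pulse libraries were Gtf3c5, a subunit of the TFIIIC complex (0.911), Ssu72, a phosphatase of RNA polymerase II (0.898), Ino80c, a subunit of the INO80 remodeller (0.885), Ecsit (0.877) and Dph1 (0.869). In the Npas4 libraries their r with Cirbp was 0.543, -0.11, 0.456, 0.291 and 0.0114. The 16 chaperones ranked all correlated negatively with Cirbp in the light-pulse libraries, with a median of -0.607. Over 17 ranked in the Npas4 libraries the median was -0.342. With Rbm3 the same list mostly correlated positively. This held for 15 of 16 in the light-pulse libraries (median 0.437) and 16 of 17 in the Npas4 libraries (median 0.333). With each other, Cirbp and Rbm3 had r of -0.237 in the light-pulse and -0.383 in the Npas4 libraries. Points in these correlations share library depth, composition and group, so they are given as descriptions.

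Histone marks were measured by ChIP-seq in wild-type SCN after 1 h of light and in dark, with 1 peak list per mark and condition, each sample from 2 pairs of SCN. The fold enrichments are the authors' values, and with no replicates they describe these libraries alone. The strongest H3K27ac peak over Cirbp, a mark of active promoters and enhancers, had a fold of 11.9 in light (chr10:80167863-80168206) and 13.1 in dark (chr10:80167826-80168498). It ranked in the top 0.782% of 40403 peaks in light and the top 0.887% of 38447 in dark. The strongest H3K4me3 peak, a mark of active promoters, had a fold of 42.1 in light (chr10:80167787-80169322) and 43.7 in dark (chr10:80167719-80169136). All 4 summits lay 154 to 169 bases after the first of the 2 listed Cirbp starts, just downstream of the promoter letters shown above. H3K27ac peaks over Cirbp numbered 5 in light, covering 1402 bases, and 2 in dark, covering 1092 bases.

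Rbm3 carried 1 peak of each mark per condition, at its end with the higher coordinate, where Rbm3os overlaps it. The H3K27ac fold was 6.10 in light and 6.98 in dark, and the H3K4me3 fold was 29.0 in light (chrX:8144087-8146429) and 32.7 in dark (chrX:8144175-8146306). All 4 pairs of strongest peaks thus had a slightly lower fold in light, for the transcript that rose as for the one that fell. Over whole lists, the median H3K27ac fold was also lower in light (5.18 against 5.55), whereas that of H3K4me3 was higher (14.8 against 12.8). By rank in its list, Cirbp stood higher in light for both marks, with H3K4me3 in the top 3.67% against 9.88% in dark. Rbm3 stood lower for both, with H3K27ac in the top 26.8% against 22.8% and H3K4me3 in the top 27.2% against 25.7%. Without replicates no difference between the conditions can be tested.

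**Figure D5:**
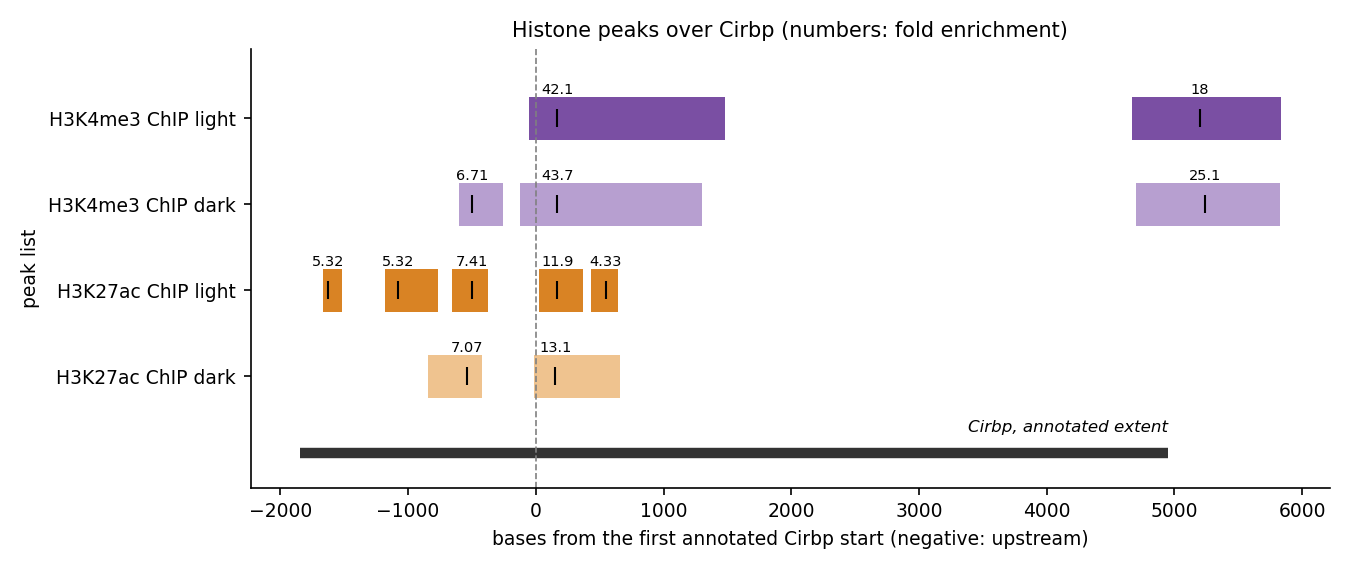
Histone peaks over Cirbp in each list, by distance in bases from the first of the 2 starts listed among the RefSeq promoters (dashed line). Boxes are peaks, ticks are summits and the numbers above them are the authors' fold enrichments. The strongest peak of each list sits just downstream of the start, with H3K4me3 folds of 42.1 in light and 43.7 in dark and H3K27ac folds of 11.9 in light and 13.1 in dark.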

How the data were processed

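Each bulk library has a column of raw counts by gene symbol and a column of RPKM, both deposited by the authors. The deposited RPKM equalled the counts divided by gene length and library total, with lengths of 2604 bases for Cirbp and 4698 for Rbm3. The authors' narrowPeak lists give a fold enrichment (a ratio over background) and a −log10 q-value of at least 2.03 per peak. Per the submitters' processing notes, STAR, HTSeq 0.9.1, featureCounts 1.6.2, MACS2 2.1.1 and the build mm10 were used in the series, and which made each file is not given in the sources used here.

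The test was edgeR's quasi-likelihood F-test (version 4.0.16, R 4.3.3) after TMM scaling and filterByExpr, on 14524 genes of 16 light-pulse libraries and 15001 genes of 12 Npas4 libraries. P-values were adjusted by Benjamini-Hochberg over all genes tested, and a gene was called at 0.05. The light-pulse model held the 6 groups and the letter s, and the Npas4 model its 4 groups. DESeq2 1.42.0, limma 3.58.1 on log2 RPKM with pseudocounts of 1 and 0.1, other terms, scalings, filters and leave-outs were alternatives. No source used here dates the pools, and the p-values reflect only how these libraries vary, part of which may be technical. Within groups, chi-square values per degree of freedom were 4.88 to 33.9, above the 1.5 set to mark a repeat. Libraries that share a number, with and without s, may still come from 1 pool.

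The members and gene lists were chosen with earlier results of these data known. The genes named are the 2 members, the 5 genes with the highest r with each among genes with a mean CPM of 5 or more, and at most 4 called genes per list. No column belonged to an unlisted sample. Single-nucleus and ChIP input samples were not used here. RefSeq promoters held Cirbp but no entry named Rbm3.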

Additional observations from a re-analysis of the deposited data

How the results depend on the processing

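Of 515 alternative values, 459 kept their direction and side of the threshold, 20 lost a call, 5 gained one and 31 changed sign (log2 changes throughout, edgeR unless named). Cirbp at 1 h was 0.28 with the label batch term, 0.12 with no technical term, 0.28 with both terms, 0.20 with libraries of a number summed and 0.35 within label batch 2 (adjusted p = 0.0463). Cirbp at 3 h was 0.17 with the label batch, 0.16 with both terms, 0.0802 summed and 0.23 within label batch 2, and Rbm3 at 3 h was -0.0137, -0.0197 summed and -0.0628 within label batch 2. Cirbp at CT23 against CT17 was -0.0533 without the s libraries and -0.0450 with only the groups compared. The Rbm3 step from 0.5 h to 1 h was -0.0527 with the label batch, -0.0357 with no term, -0.0087 without s, -0.0471 summed, -0.0679 within label batch 2, -0.0149 and -0.0155 in limma on log2 RPKM with pseudocounts of 1 and 0.1, and -0.0047 with only the groups compared. The cause was not tested for any of these. With only the groups compared, the wild-type light calls were lost, at -0.33 for Cirbp (adjusted p = 0.0904) and 0.33 for Rbm3 (adjusted p = 0.0524), where fewer libraries set the spread.

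Leaving out 1 library at a time gave -0.0592 to 0.0522 for Cirbp at 1 h, -0.0259 to 0.12 for Rbm3 at 3 h, -0.0556 to 0.33 for Cirbp and -0.15 to 0.39 for Rbm3 at 6 h, -0.13 to 0.18 for Cirbp at CT23 and -0.21 to 0.22 for the Rbm3 step. In the Npas4 experiment it gave -0.41 to -0.26 for Cirbp and 0.30 to 0.38 for Rbm3 in wild-type light, -0.0102 to 0.0762 for the Rbm3 difference in response and -0.26 to -0.19 for Cirbp averaged over genotypes.

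The replicate block gave 0.39 for Rbm3 at 0.5 h (adjusted p = 0.0349), -0.27 for Cirbp in null against wild-type dark (adjusted p = 0.0251) and -0.16 for Cirbp averaged over lighting (adjusted p = 0.0375), each called only with the block, and changed no other call. Same-numbered libraries deviated together with correlations over 0.1 in 17 of 18 Npas4 pairs and 10 of 15 light-pulse pairs, and 17 and 13 correlated best with their own number, a hint from the data and not from the design. The light-pulse groups at 1 h, 3 h, 6 h and CT23 held 2 libraries each and Rbm3 had as few as 273 reads in a library, and the part of either in the lack of calls was not tested.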
